A study of Mus musculus with 5 samples.

Results

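Transcripts of 10 AP-1 and immediate early genes were compared between acute myeloid leukaemia (AML) cells and normal myeloid cells of the mouse. The genes are Fos, Fosb, Jun, Junb, Jund, Atf3, Egr1, Ier2, Zfp36 and Dusp1, and they were taken by name from a table of 34240 features. RNA sequencing had given 5 libraries from BALB/c mice aged 10 to 12 months. The AML group had 2 libraries of Mac+Gr1+B220+ cells, sorted from bone marrow and spleen of mice whose leukaemia was driven by CNTRL-FGFR1, in which part of centriolin, a protein of the centrosome, is joined to the receptor tyrosine kinase FGFR1. The normal group had 3 libraries of Gr1+Mac1+ myeloid cells sorted from bone marrow. Mac1 (Mac) and Gr1 are surface antigens of granulocytes and monocytes, and B220 is an isoform of CD45 found mainly on B cells. How the fusion was expressed, and whether a library came from 1 animal or a pool, is not stated in the labels. B220 was part of the sort and spleen part of the tissue in the AML group alone, so neither can be told apart from leukaemia.

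Immediate early genes are switched on within minutes of a signal, without new protein synthesis, mostly through MAP kinases acting on transcription factors that already sit at the promoter. FOS proteins pair with JUN proteins to form the transcription factor AP-1, which drives growth, differentiation and inflammatory programmes in myeloid cells. The response is brief because the transcripts decay fast and because several of its products, such as DUSP1 and ZFP36, shut it down. The same genes respond to cell handling, including tissue dissociation, sorting and delay before lysis, which makes the value of each library more informative than a group mean.

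Levels are given as RPKM, read numbers divided by exon length and by library size, a unit inferred from the values. The genes of the sorting antigens were transcribed in every library, with summed levels of the 5 genes of 2585 and 1989 RPKM in AML and 2505 to 3424 RPKM in normal libraries. Within that sum Itgam, which encodes a chain of Mac1 (2.33-fold by mean RPKM), Ly6g, a target of Gr1 antibodies (2.31-fold), and Ptprc, the CD45 gene (3.05-fold), were lower in AML cells (limma, adjusted p from 0.0087 to 0.02), while Ly6c2 lay above all normal libraries in both AML libraries without passing the test (limma, adjusted p = 0.093). Neutrophil marker transcripts summed to between 170188 and 292713 RPKM across all libraries, a sum made up mostly of S100a8, S100a9, Ngp and Camp. The other 5 of the 9 markers were lower in AML cells without overlap, namely Ltf (2.61-fold), Mmp8 (6.85-fold), Mmp9 (9.31-fold), Csf3r (2.5-fold) and Cxcr2 (7.91-fold; limma, adjusted p from 0.0005 to 0.026), and the median log2 fold change of the 9 was -1.34. The normal libraries were not alike. In normal library 3 the erythroid markers (6 of 7 in the table) summed to 167 RPKM, against 2214 and 1450 RPKM in normal libraries 1 and 2, and the eosinophil and basophil markers (7 of 8 in the table) to 13.8 RPKM, against 738 and 764 RPKM. The AML libraries had 148 and 170 RPKM of erythroid and 113 and 234 RPKM of eosinophil and basophil markers. Monocyte and macrophage markers differed by group, with all 12 lower on average in AML cells and summed levels of 62.0 and 74.6 RPKM in AML and 775 to 1099 RPKM in normal libraries. B cell markers summed to 11.1 and 13.8 RPKM in AML and 13.6 to 21.3 RPKM in normal libraries, and T and NK cell markers to 617 and 575 RPKM in AML and 56.6 to 64.4 RPKM in normal libraries. In AML libraries the sum for T and NK cells lay mostly in Cd3e, Cd3g and Nkg7, whereas Cd3d was lower in AML cells (16.5 and 17.2 RPKM, against 38.4 to 45.5 RPKM in normal libraries) and Cd2, Lck and Klrd1 stayed below 0.8 RPKM in every library. None of these lists had a marker at 0 in every library of a group. The part of these cells in the results below was not tested, and in bulk libraries fewer cells of a type and less RNA per cell cannot be told apart.

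The regulatory sequence of the genes was examined first, since they are grouped by how fast their transcripts come and go. RefSeq promoter windows of the GRCm38.p6 assembly were at hand for 8 of the 10 genes (not Egr1 or Ier2), and the 250 bases before the annotated start were searched on both strands for 7 motifs. The letters TGACG, the core of the cyclic AMP response element bound by CREB and ATF factors, stood in 5 of 8 windows (Atf3, Dusp1, Fos, Fosb and Junb), against 17.77% of all 32851 windows. The full palindrome TGACGTCA, which contains TGACG, stood in 1 of 8 (Dusp1, 1.55% of all windows), and the CArG box, the site of serum response factor, in 1 of 8 (Zfp36, 1.47%). The EGR motif GCGNGGGCG was found in Fosb and Zfp36 (2 of 8, 4.7%), CCGGAA of ETS factors in Zfp36 (12.03%) and TATAAA in Fos (12.37%). The AP-1 motif TGANTCA stood in 0 of 8 windows (6.75%). For each of the 7 motifs, the CArG box included, absence says only that the letters are not in this stretch. Sequence farther from the start, and any of Egr1 and Ier2, was not searched. The 4 windows printed here belong to genes whose AML libraries all lay under their normal libraries. Capitals mark TGACG or its reverse complement, TGACGTCA, and the CArG box.
Fosb (chr7:19310046-19310295, minus strand): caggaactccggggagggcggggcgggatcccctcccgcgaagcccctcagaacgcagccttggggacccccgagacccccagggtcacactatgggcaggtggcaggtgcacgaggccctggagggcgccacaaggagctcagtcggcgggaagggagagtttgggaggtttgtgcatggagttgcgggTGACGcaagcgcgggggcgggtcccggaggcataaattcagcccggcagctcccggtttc
Atf3 (chr1:191183334-191183583, minus strand): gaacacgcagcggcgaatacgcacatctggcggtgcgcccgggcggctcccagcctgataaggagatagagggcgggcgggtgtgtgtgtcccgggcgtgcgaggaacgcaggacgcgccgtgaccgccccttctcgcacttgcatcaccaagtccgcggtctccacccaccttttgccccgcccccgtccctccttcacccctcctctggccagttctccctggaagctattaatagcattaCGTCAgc
Dusp1 (chr17:26508473-26508722, minus strand): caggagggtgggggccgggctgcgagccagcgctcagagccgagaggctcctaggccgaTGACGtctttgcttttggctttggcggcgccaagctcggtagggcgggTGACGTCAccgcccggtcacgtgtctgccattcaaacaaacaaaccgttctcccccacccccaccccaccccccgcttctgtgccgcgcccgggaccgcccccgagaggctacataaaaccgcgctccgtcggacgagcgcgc
Zfp36 (chr7:28379229-28379478, minus strand): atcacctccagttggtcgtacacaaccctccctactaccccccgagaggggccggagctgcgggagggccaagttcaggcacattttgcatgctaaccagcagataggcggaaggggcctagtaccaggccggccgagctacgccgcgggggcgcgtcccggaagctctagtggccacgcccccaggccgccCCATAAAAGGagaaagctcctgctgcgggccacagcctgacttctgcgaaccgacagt

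A second shared feature lay in the 3' untranslated regions. The letters TATTTAT, with U for T in the RNA, the core of the AU-rich element to which ZFP36 binds to destabilise a transcript, were present in 7 of the 10 genes. Among 9449 tested genes with a 3' untranslated region of at least 100 bases, 28.0% held them, and among the 4880 genes whose region was as long as the shortest to the longest of the 10, 26.0%. The shorter pentamer ATTTA, which is part of TATTTAT, stood in 9 of 10, all but Ier2, against 69.2% of the 9449 genes. Its median density was 2.88 per kb over the 10 genes and 1.23 per kb over the 9449. Dusp1 and Zfp36 had 3 copies of TATTTAT each and Fos had 2. Egr1, Junb and Ier2 had no copy of the longer motif. The first copy in each of the 7 genes follows with its flanks, as DNA letters of the transcript in the GENCODE M1 annotation of mm9, with the motif in capitals.
Fos: tttcaattTATTTATtaagatgg
Fosb: cccccagcTATTTATccctttcc
Jun: cttgtgcaTATTTATaatagcgt
Jund: ttccgcccTATTTATgtttctac
Atf3: atattactTATTTATcccagtat
Zfp36: gggcccttTATTTATgacgactt
Dusp1: ctggtcctTATTTATttaacacc

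Fos, Fosb, Jun, Junb and Jund encode the AP-1 subunits proper. Fos (chromosome 12, 86814840 to 86818223, mm9) stood at 54.4 and 84.4 RPKM in AML libraries 1 and 2 and at 70.7, 132.0 and 396.3 RPKM in normal libraries 1 to 3. The groups overlapped, because AML library 2 lay above normal library 1, and normal library 3 stood far above the rest. The log2 fold change of RPKM + 1, AML minus normal, was -1.18 (SE 0.67, 95% interval -2.77 to 0.40) and missed the threshold of 0.05 (limma with Benjamini-Hochberg adjustment, adjusted p = 0.22). Fosb (chromosome 7, 19888070 to 19895394), a FOS relative with a more restricted expression, was at 0.5 RPKM in both AML libraries and at 1.8, 8.9 and 8.8 RPKM in normal libraries 1 to 3. Its groups did not overlap, and it fell by 2.11 on the log2 scale (SE 0.55, limma adjusted p = 0.028), a 13-fold difference of mean RPKM. The table gives Fosb to 1 decimal, so the equal AML values are equal only to that rounding.

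Jun (chromosome 4, 94715725 to 94718913), the main partner of FOS, stood at 7.3 and 9.9 RPKM in AML libraries and at 9.5, 23.3 and 41.4 RPKM in normal libraries 1 to 3. AML library 2 lay just above normal library 1, and the log2 fold change was -1.22 (SE 0.55, limma adjusted p = 0.13). Junb (chromosome 8, 87500811 to 87502617), a JUN protein with weaker activating and in part opposing effects on growth, was at 16.7 and 26.6 RPKM in AML libraries and at 26.3, 39.2 and 194.5 RPKM in normal libraries. Its log2 fold change was -1.44 (SE 0.78, limma adjusted p = 0.20). Normal library 3 held Junb far above the other libraries, at 5.94 times the mean of normal libraries 1 and 2. Jund (chromosome 8, 73221638 to 73224515) is the JUN gene that responds least to stimulation, and it had the narrowest range of the 10 genes over these libraries. It stood at 10.7 and 15.5 RPKM in AML libraries and at 10.2, 14.8 and 22.6 RPKM in normal libraries, with a log2 fold change of -0.21 (SE 0.35, 95% interval -1.05 to 0.63, limma adjusted p = 0.68). Annotated genes on the opposite strand overlap exons of Jun, Jund and Egr1, and whether reads were counted by strand is not stated in the labels.

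**Figure D1:**
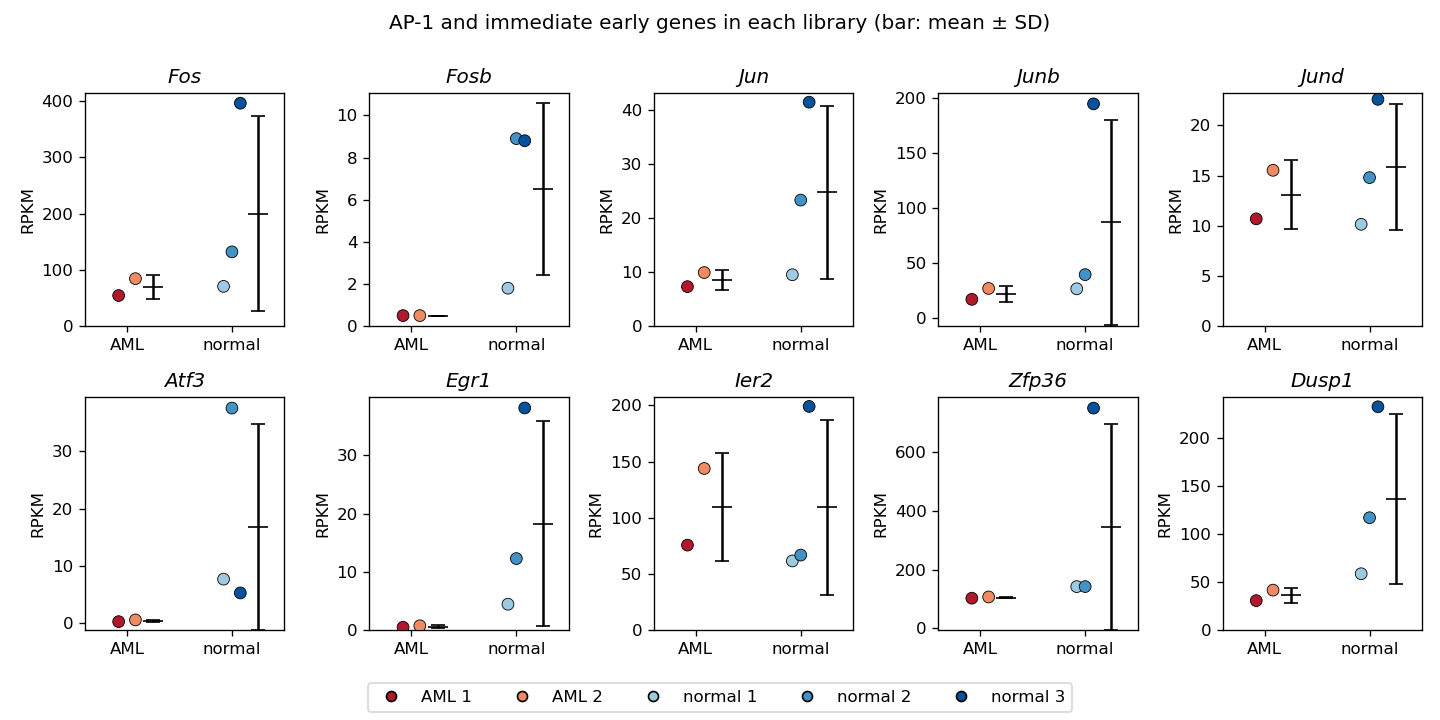
RPKM of each of the 10 genes (vertical axis, linear, 1 panel per gene) in AML libraries 1 and 2 (left) and normal libraries 1 to 3 (right), with the mean and SD of each group beside the points. Normal library 3 is the highest point in 8 panels, while Fosb and Atf3 have their highest value in normal library 2.

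Atf3 and Egr1 showed the largest log2 fold changes of the 10 genes. Atf3 (chromosome 1, 192994175 to 193007219), a stress-induced bZIP factor that mostly represses and can pair with JUN proteins, stood at 0.3 and 0.6 RPKM in AML libraries and at 7.7, 37.5 and 5.3 RPKM in normal libraries 1 to 3. Every AML library lay below every normal library, and Atf3 was 37.4-fold lower by mean RPKM (log2 fold change -3.15, SE 0.72, limma adjusted p = 0.017). Like Fosb it was highest in normal library 2, and among normal libraries it was lowest in library 3. Without normal library 2 the difference of mean RPKM was 14.4-fold and the log2 fold change -2.36 (limma adjusted p = 0.0058). At a depth recovered from the steps between low values, 0.3 RPKM in AML library 1 corresponded to about 21 reads. Egr1 (chromosome 18, 35020861 to 35024638), a zinc finger transcription factor induced by MAP kinase signalling and linked to monocyte differentiation, stood at 0.53 and 0.78 RPKM in AML libraries and at 4.48, 12.3 and 38.1 RPKM in normal libraries. Its groups did not overlap either, and it was 27.9-fold lower by mean RPKM (log2 fold change -3.10, SE 0.73, limma adjusted p = 0.019), or 12.8-fold without normal library 3. The fold scale of RPKM + 1 understates both changes. With 0.1 in place of 1 the log2 fold changes were -4.46 for Atf3 (adjusted p = 0.0071), -4.12 for Egr1 (adjusted p = 0.0094) and -3.15 for Fosb (limma, adjusted p = 0.014).

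Zfp36 and Dusp1 encode inhibitors of the response. Zfp36 (chromosome 7, 29161803 to 29164274), also known as tristetraprolin, was at 102.7 and 106.9 RPKM in AML libraries and at 142.2, 142.3 and 751.5 RPKM in normal libraries 1 to 3. The groups did not overlap, yet with normal library 3 at 5.28 times the mean of normal libraries 1 and 2 the log2 fold change, -1.24 (SE 0.71), missed the threshold (limma adjusted p = 0.22). Dusp1 (chromosome 17, 26642535 to 26645464), a phosphatase that inactivates MAP kinases, was at 31.0 and 41.9 RPKM in AML libraries and at 59.0, 117.4 and 233.0 RPKM in normal libraries. Its groups did not overlap, and its log2 fold change of -1.68 (SE 0.54, 95% interval -2.95 to -0.40) narrowly missed the threshold (limma adjusted p = 0.053). Dusp1 passed with a filter at 5 RPKM and under quantile normalization (limma, adjusted p = 0.0496 and 0.031). It missed with no filter, with 0.1 added in place of 1 and under upper quartile scaling (limma, adjusted p from 0.051 to 0.12). Ier2 (chromosome 8, 87185230 to 87186751), a nuclear protein of the first wave of induction, had 75.8 and 143.9 RPKM in AML libraries and 61.7, 66.9 and 199.0 RPKM in normal libraries. Both AML values lay between those of normal libraries 2 and 3, and the log2 fold change was 0.15 (SE 0.55, 95% interval -1.16 to 1.47, limma adjusted p = 0.85). The sign for Ier2 turned under quantile normalization (-0.03) and without any one of normal library 1 (-0.14), normal library 2 (-0.09) or AML library 2 (-0.30).

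All 10 genes entered the test, which asked for 1 RPKM in 2 or more libraries. Fosb, Atf3 and Egr1 reached 1 RPKM in normal libraries alone, and a gene that enters through the group where it is high is bound to differ between the groups, so the counts that follow are a description. By these counts 3 of the 10 genes were lower in AML cells and none was higher (limma, adjusted p under 0.05; at an unadjusted p under 0.05, 4 were lower and 0 higher). Of 10166 tested genes 11.8% were called lower and 19.3% higher. At an unadjusted p under 0.05, 1765 of them were lower and 2698 higher (limma). In 5 of 10 genes (Fosb, Atf3, Egr1, Zfp36 and Dusp1) both AML libraries lay below all normal libraries, against 22.1% of tested genes. In 0 of 10 did both lie above them, against 34.8% of tested genes. The median log2 fold change of the 10 was -1.34, with 9 below 0, while over all tested genes the median was 0.12 and 44.1% were below 0. All 3 calls were lost without AML library 1 (adjusted p = 0.12 for Fosb, 0.097 for Atf3 and 0.1 for Egr1; 6.18% of genes tested there were lower and 7.08% higher) and also without AML library 2 (adjusted p = 0.16 for Fosb, 0.11 for Atf3 and 0.12 for Egr1; 3.55% lower and 3.33% higher). Each of these fits has a single AML library, assumed to vary like the normal ones, and the log2 fold changes were -2.11 for Fosb, -3.0 for Atf3 and -2.99 for Egr1 without AML library 1, and -2.11, -3.30 and -3.21 in that order without AML library 2. Fosb missed the threshold without normal library 2 as well (limma, adjusted p = 0.075). Without normal library 1, 5 of 10 were lower, against 8.01% of genes tested there (11.4% higher), with Jun (adjusted p = 0.019) and Dusp1 (limma, adjusted p = 0.013) added. With no filter on low values, 0 of 10 passed, against 6.16% of genes lower and 10.2% higher. Adjusted p was 0.071 for Fosb, 0.052 for Atf3 and 0.056 for Egr1 (limma). At an unadjusted p under 0.05, 4 members were lower, against 2266 lower and 3304 higher of 17466 genes (limma). The log2 fold changes were the same there, while the number of genes tested rose to 17466 and the SE of Fosb, for example, was 0.60 in place of 0.55.

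The normal libraries differed among themselves. Normal library 3 was the highest of all 5 libraries in 8 of the 10 genes, against 13.1% of all tested genes. It stood at least 2-fold above the mean of normal libraries 1 and 2 in 7 of 10 genes (Fos, Jun, Junb, Egr1, Ier2, Zfp36 and Dusp1), against 5.56% of all tested genes. This is a single library, so the difference has no replicate check. Normal library 1 had the lowest normal value in all of the genes except Atf3. The lowest of all 5 values lay in an AML library in 8 of 10 genes, with the AML libraries tied for Fosb, against 40.0% of all tested genes. The highest normal value exceeded the lowest by 2.23 times for Jund and by 8.51 times for Egr1. Between the AML libraries the spread was smaller, with library 2 at 1.0 (Fosb) to 2.0 (Atf3) times library 1.

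The genes were next compared without normal library 3. Fosb, Atf3, Egr1 and Dusp1 passed as lower, 4 of 10 against 21.2% of genes tested there, and 0 as higher, against 27.3% (limma, 0 higher also at an unadjusted p under 0.05; Dusp1 log2 fold change -1.19, SE 0.35, adjusted p = 0.023). For Egr1 the log2 fold change was then -2.37 (SE 0.38, adjusted p = 0.0017) and for Atf3 -3.67 (SE 0.58, limma adjusted p = 0.0016). That of Fosb was -1.81, so Fosb, Egr1 and Dusp1 came closer to 0 and Atf3 moved farther from it. Fos, Junb, Zfp36 and Jun also came closer to 0, with Fos at -0.51 (SE 0.35), Junb at -0.58 (SE 0.31), Zfp36 at -0.44 (SE 0.23) and Jun at -0.75 (SE 0.39), and none of these passed (limma adjusted p from 0.14 to 0.26). Jund changed sign (0.07) and Ier2 moved to 0.69 (SE 0.32, limma adjusted p = 0.11). When the normal group consisted of library 3 only, which was then assumed to vary like the AML libraries, 5 of 7 tested members (Fos, Jun, Junb, Zfp36 and Dusp1) passed as lower, against 4.99% of 9446 tested genes (9.15% higher), with Junb at -3.14 and Zfp36 at -2.83. Fosb, Atf3 and Egr1 were under the filter on low values in that fit. Normal library 3 was the highest of all libraries in 8 of the 10 genes. All 5 genes that passed stood there at least 2-fold above the mean of normal libraries 1 and 2. Their passing thus follows largely from the choice of that library, and the count is a description that cannot be weighed against the share of all genes.

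**Figure D2:**
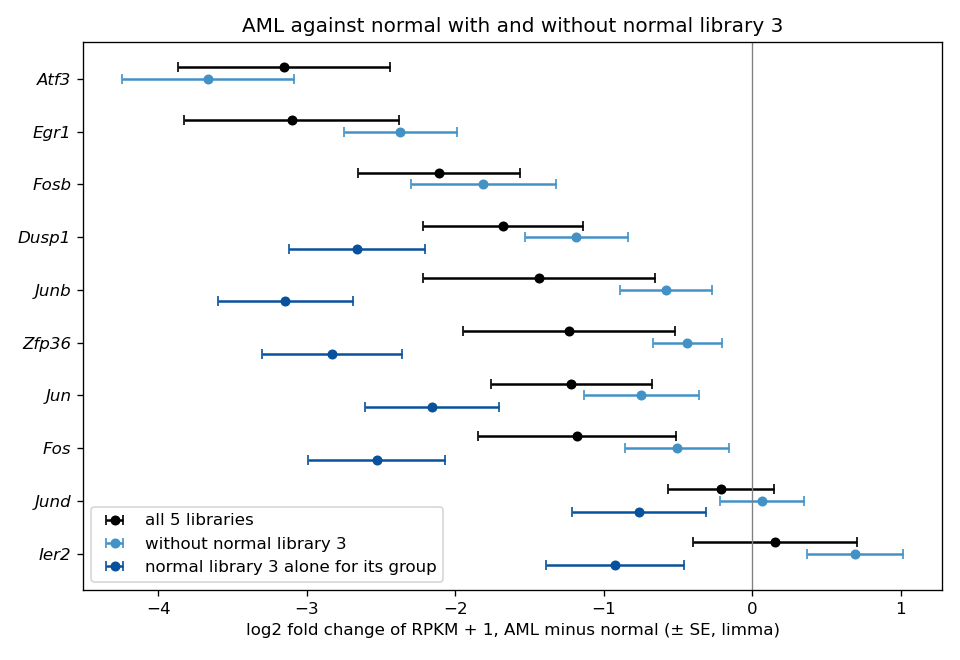
Log2 fold change of RPKM + 1, AML minus normal (horizontal axis, ± SE from limma), for each gene with all 5 libraries, without normal library 3, and with that library as the whole normal group. Fos, Junb and Zfp36 lie at -0.51, -0.58 and -0.44 without that library and at -2.53, -3.14 and -2.83 with it alone, while Atf3, Egr1 and Fosb stay below -1.8 in both fits that tested them.

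RPKM is scaled by length, so levels of different genes can be compared. Zfp36, Ier2, Fos or Dusp1 filled the 3 highest ranks in every library. Zfp36 ranked first in AML library 1 and in all 3 normal libraries, and Ier2 in AML library 2. Ier2 made up 25.3% and 33.4% of the summed RPKM of the 10 genes in AML libraries 1 and 2 and 15.7% in normal library 1. The sum itself was 300 and 431 RPKM in AML libraries and 393, 595 and 1891 RPKM in normal libraries 1 to 3, so the AML values lay on either side of normal library 1.

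The makeup of the FOS and JUN family was described from 7 genes, the 5 above with Fosl1 and Fosl2. Their summed level was 96.8 and 143.7 RPKM in AML libraries and 161.1, 267.8 and 700.5 RPKM in normal libraries 1 to 3. Fosl2, which encodes FRA-2, stood at 7.2 and 6.7 RPKM in AML libraries and at 42.7, 49.1 and 36.9 RPKM in normal libraries. It was thus lower in AML cells whichever normal library is taken (log2 fold change -2.46, SE 0.23, limma adjusted p = 0.00069), and it did not share the peak in normal library 3. Fosl2 made up 7.44% and 4.66% of the family sum in AML libraries and 26.5%, 18.3% and 5.27% in normal libraries 1 to 3. The low share in normal library 3 went with the high levels of Fos and Junb there. Jund took a larger part of the JUN transcripts in AML libraries (30.8% and 29.8%) than in normal libraries (22.1%, 19.2% and 8.74%), and Junb made up 75.2% of them in normal library 3. FOS genes outweighed JUN genes in every library, by 1.79 and 1.76 times in AML and by 2.51, 2.47 and 1.71 times in normal libraries.

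**Figure D3:**
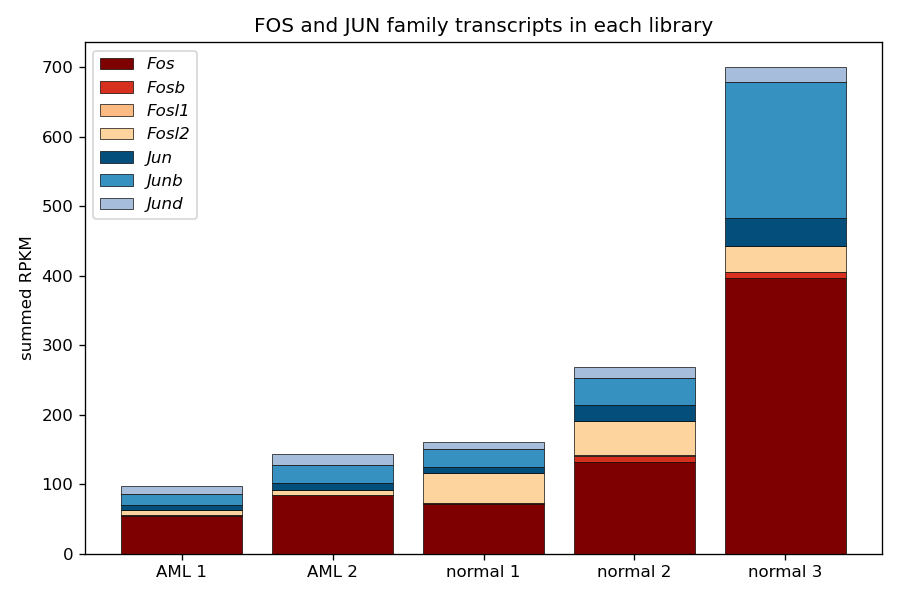
Summed RPKM of the 4 FOS and 3 JUN genes (vertical axis) in each library, AML at the left and normal at the right, with each gene's part in its own colour. The bar of normal library 3 reaches 700.5 RPKM against 96.8 to 267.8 RPKM in the others, and the Fosl2 part is thin in both AML libraries.

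Further genes of the pathway were counted in lists. Over all 10166 tested genes 11.8% were lower and 19.3% higher. Without normal library 3 these shares were 21.2% and 27.3%, and without normal library 2 there were 640 lower and 955 higher of 9933 genes. Shares for the other fits that leave out a library or the filter are given above. Of 12 other bZIP genes that resemble or pair with FOS and JUN, 9 were tested, Fosl2 alone was lower and 0 were higher (limma; 0 higher also at an unadjusted p under 0.05). The median log2 fold change of this list was -0.16, and without normal library 3 there were 2 lower genes and 1 higher. Fosl1, Batf2 and Maff stayed under 1 RPKM in every library. Of 33 further immediate early genes 29 were tested, of which 13 were lower and 3 higher in AML cells, with a median of -1.16. The lower genes with the largest change were Klf4, a factor of monocyte formation (-3.27, SE 0.23), Nr4a1, an inducible nuclear receptor (-2.95, SE 0.38), Ptgs2, cyclooxygenase 2 (-2.81, SE 0.64), and Klf2, a factor of leukocyte quiescence (-2.56, SE 0.65), with limma adjusted p from 0.00036 to 0.026. The higher genes were Myc, a growth-promoting transcription factor (3.09, SE 0.24), Dusp2, a nuclear MAP kinase phosphatase (1.64, SE 0.33), and Gadd45b, a stress sensor upstream of p38 (1.39, SE 0.24). Dusp2 was thus higher, while the log2 fold change of Dusp1, which also encodes a MAP kinase phosphatase, was below 0. Klf4 was also among the monocyte markers. Klf4 and Ptgs2, with the lower genes Plk2 and Dusp5, reached 1 RPKM in normal libraries alone. Genes that enter the test in this way are bound to differ, so the counts of these lists are a description too. Calls of Ptgs2 and Klf2 were lost without either AML library and with no filter, those of Dusp2 and Gadd45b without AML library 2, and that of Gadd45b also with normal library 3 as the whole normal group (limma, adjusted p from 0.053 to 0.14). Of this list 5 were lower without AML library 1, 5 without AML library 2, 8 without normal library 2 and 7 with no filter. The higher genes numbered 6 without normal library 3 and 1 without AML library 2.

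**Figure D4:**
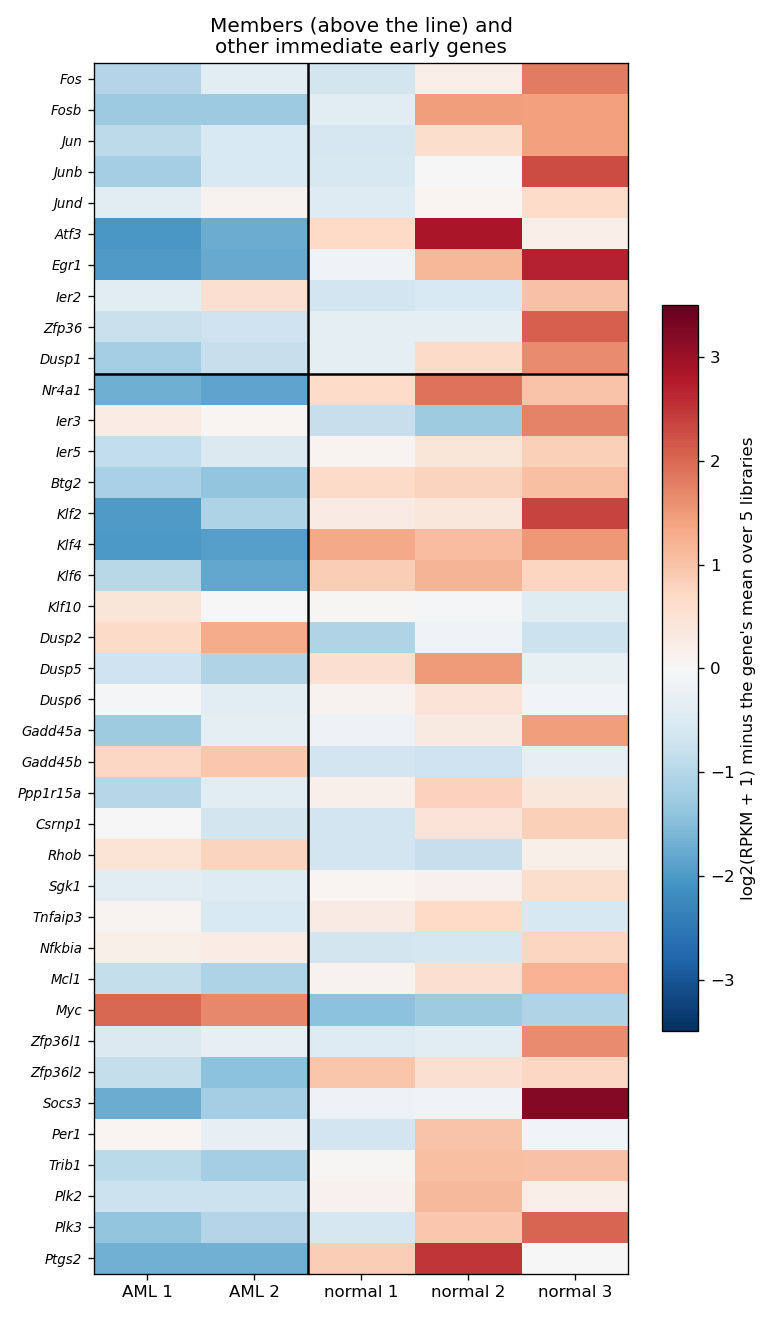
Log2(RPKM + 1) minus the gene's mean over the 5 libraries (colour) for the 10 genes above the line and the 29 tested further immediate early genes below it, with AML libraries at the left. Red cells in normal library 3 mark Junb, Egr1, Zfp36, Klf2 and Socs3, those in normal library 2 mark Atf3, Nr4a1 and Ptgs2, and those in the AML libraries mark Myc.

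The genes peaked in different normal libraries. Of the 29 further immediate early genes 13 were highest in normal library 3 and 10 in normal library 2, against 1332 and 1533 of all 10166 tested genes. Nr4a1, at 1.4 and 1.2 RPKM in AML libraries, had 11.2, 28.4 and 14.7 RPKM in normal libraries 1 to 3. Ptgs2, at 0.1 RPKM in both AML libraries, had 5.4, 18.9 and 2.6 RPKM there, the same order as Atf3. Socs3, a feedback inhibitor of cytokine signalling named after its values were seen, stood at 1.05 and 2.0 RPKM in AML libraries and at 4.94, 5.29 and 62.7 RPKM in normal libraries, a steeper rise in library 3 than that of any of the 10 genes. The differences among normal libraries thus did not follow 1 common scale.

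The 5 genes whose profile lay closest to that of Fos were Cd14, Slfn4, Junb, Jun and Tlr1, by Euclidean distance between log2(RPKM + 1) values centred on each gene's mean, over 5 libraries and 10165 genes. Their distances ran from 0.48 to 0.60. Cd14, a receptor for bacterial lipopolysaccharide, stood at 13 and 14.4 RPKM in AML libraries and at 11.8, 31.6 and 85.8 RPKM in normal libraries. Dusp1 ranked 11th and Zfp36 19th by this distance, whereas Egr1 ranked 1957th and Atf3 9770th. All 5 nearest genes had their highest value in normal library 3, which follows from their choice by closeness to Fos.

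Few genes upstream of the response passed the test. Of 20 kinases and transcription factors that switch immediate early genes on, all were tested, 1 was lower and 0 were higher (limma; 2 higher at an unadjusted p under 0.05), with a median log2 fold change of -0.14. Over all tested genes 11.8% were lower and 19.3% higher. At an unadjusted p under 0.05, 2698 of all 10166 genes were higher (limma). The lower gene was Map2k6, a kinase of p38, at 0.6 and 0.3 RPKM in AML libraries and at 4.1, 4.2 and 1.4 RPKM in normal libraries (log2 fold change -1.47, SE 0.37, limma adjusted p = 0.024). It reached 1 RPKM in normal libraries alone, so it entered the test through the group where it is high. Its call was lost with no filter and without any one library other than normal library 3 (limma, adjusted p from 0.054 to 0.17), and a filter at 5 RPKM left it untested. Without normal library 3, 6 were lower and 1 higher, against 21.2% and 27.3% of genes tested there. Srf, the serum response factor, stood at 14.3 and 8.76 RPKM in AML libraries and at 13.4, 12.9 and 10.5 RPKM in normal libraries, so its groups overlapped. A transcript level does not report the phosphorylation by which these proteins act.

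Transcripts known as targets of ZFP36 were counted because the ZFP36 protein speeds their decay. Of 12 such genes 8 were tested, 5 were lower and 0 higher in AML cells (limma; 0 higher also at an unadjusted p under 0.05), against 11.8% and 19.3% of all tested genes. The median log2 fold change was -2.56. Il1b, an inflammatory cytokine, was the lowest of them (-4.47, SE 0.60, adjusted p = 0.0027), followed by Osm, oncostatin M (-2.88, SE 0.84), Ptgs2 and Ccl3, a chemokine (-2.55, SE 0.60, limma adjusted p = 0.02). Ptgs2 and Ccl4, which was also lower, reached 1 RPKM in normal libraries alone. Tnf (0.25, SE 0.72) and Ier3 (0.27, SE 0.82) lay above 0 and did not pass. Ier3 and Ptgs2 were also counted among the further immediate early genes, so these lists overlap. Osm stood at 5.4 RPKM in both AML libraries and at 18.5, 29.9 and 172.9 RPKM in normal libraries, while Il1b stood at 3.95 and 6.93 RPKM in AML libraries and at 135.8, 297.6 and 64.9 RPKM in normal libraries. Osm thus peaked in normal library 3 with Zfp36, and Il1b in normal library 2 with Atf3. Lower genes numbered 1 without either AML library or with no filter and 3 without normal library 2, and 2 were higher without normal library 3. Calls of Osm and Ccl3 were lost with no filter, without normal library 2 and without either AML library (limma, adjusted p from 0.055 to 0.19). Many of these transcripts are made by monocytes, whose markers were lower in AML cells as given above, and a link between the 2 was not tested.

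Heat shock genes, which also respond to handling, were counted beside these. Of 12 stress chaperone genes 9 were tested. In either direction 0 passed (limma), against 11.8% lower and 19.3% higher of all tested genes. At an unadjusted p under 0.05 the count was also 0, against 1765 lower and 2698 higher of 10166 genes (limma). The median log2 fold change of the 9 chaperones was 0.06. Hsp90ab1, a constitutive HSP90 with the highest mean level of them over the 5 libraries, stood at 279 and 134 RPKM in AML libraries and at 241, 212 and 137 RPKM in normal libraries (log2 fold change 0.02, SE 0.40, limma adjusted p = 0.98). Its sign turned under both scalings tried and without normal library 3 or AML library 1. Hspa1a and Hspa1b, the strongly inducible HSP70 genes, stayed below 0.7 RPKM in every library, including normal library 3 at 0.17 and 0.38 RPKM. Neither was tested, and how reads that match more than 1 gene were counted is not stated. Of the 9 tested chaperones 1 stood at least 2-fold higher in normal library 3 than the mean of normal libraries 1 and 2, against 5.56% of all tested genes. It was Hspa5, at 178.4 RPKM in normal library 3 and at 80.9 and 87.5 RPKM in normal libraries 1 and 2.

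**Figure D5:**
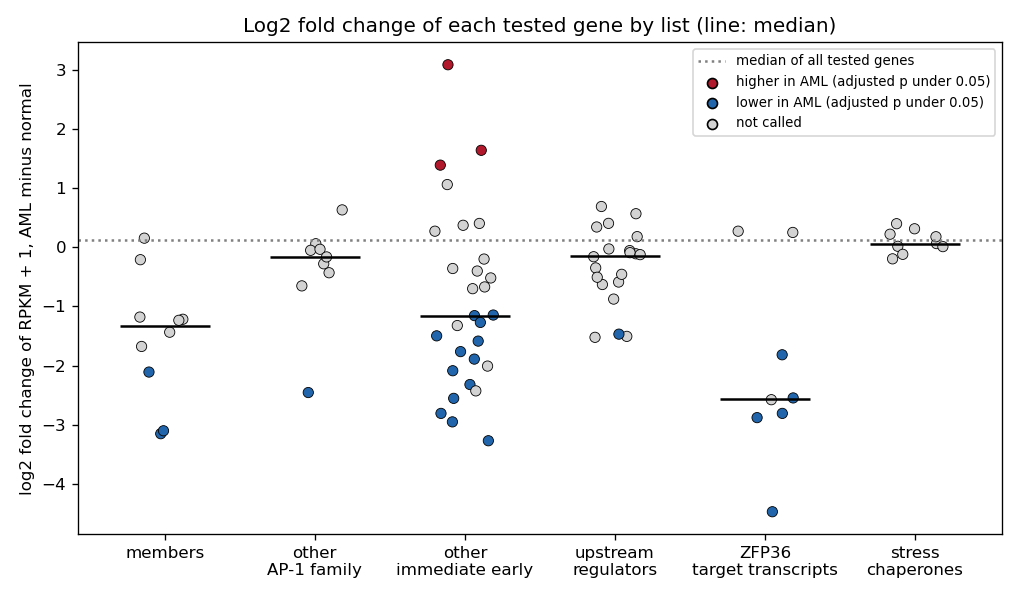
Log2 fold change of RPKM + 1, AML minus normal (vertical axis), of each tested gene in the 6 lists, with the list median as a line and the median of all tested genes (0.12) dotted. The medians are -1.34 for the 10 genes, -0.16 for other bZIP genes, -1.16 for other immediate early genes, -0.14 for upstream regulators, -2.56 for ZFP36 targets and 0.06 for stress chaperones.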

How the data were processed

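The authors deposited values whose unit is stated nowhere in the labels or header, and RPKM was inferred. Each column summed to between 472234 and 638584, and after multiplication by exon length in kb to between 1052562 and 1118076 (24692 features). Reads were placed on mm9, per the submitters' processing notes, after TruSeq RNA library preparation, per the labels' protocols. The aligner, the counting tool and any filter: not given in the sources used here. Depth was not stated: among low values of intron-less genes 72.6% were whole reads within rounding at 33250000 reads for normal library 1 (26% by chance) and 54.6% at 35750000 for AML library 1 (20.8% by chance), as the best-scoring depth tried.

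Genes reaching 1 RPKM in 2 or more libraries were tested on log2(RPKM + 1) with limma 3.58.1 in R 4.3.3 (variance trend, robust, two-sided, Benjamini-Hochberg over 10166 genes, threshold 0.05), checked on simulated data. Gene loci came from GENCODE M1 (mm9). Since separate animals are not stated in the labels, the p-values cover the spread between these libraries, which may be technical. The 10 members and all lists were chosen with earlier results of these data known. All members were named. From each other list the up to 4 called genes with the largest change in each direction were named. Where none was called, the most abundant gene was named. The 5 genes nearest to Fos were named too. Fosl1, Batf2, Maff, Plk2, Dusp5, Socs3, Srf, Tnf, Ier3, Ccl4, Hspa1a, Hspa1b and Hspa5 were named outside this rule. Alternatives were other filters, pseudocount, scalings and spread estimate, rounding, and leaving out libraries.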

Additional observations from a re-analysis of the deposited data

How the results depend on the processing

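No paired analysis was possible because the library numbers were given in accession order and link no samples. With 5 libraries, depth known for part of them and no counts, precision is limited by the number of libraries. Of 182 counts under the 13 alternatives 143 stayed within 1.5 times the count reported and 39 did not. The 143 include counts reported as 0 that stayed at 0, as for higher members and for stress chaperones. The cause of the changes was not tested. With no filter on low values, lower calls were 0 of the 10 members, 7 of the further immediate early genes, 0 upstream regulators and 1 ZFP36 target. Lower upstream regulators numbered 0 of 17 with a filter at 5 RPKM, against 842 of all 7487 genes. Under upper quartile scaling and under quantile normalization they numbered 2 of 20. Of all 10166 genes 1412 and 1432 were lower there, in that order. As given above, the members' count with normal library 3 alone follows largely from the choice of that library. With normal library 3 alone for its group, 864 of all genes were higher and 471 lower, 5 of 7 tested members were lower and 0 upstream regulators. Leaving out each library in turn gave 326 to 2757 higher and 348 to 2142 lower genes among all tested, the lowest without AML library 2 and the highest without normal library 3. The range was 0 to 5 for lower members, 0 to 1 higher and 1 to 2 lower for other bZIP genes, 1 to 6 higher and 5 to 14 lower for further immediate early genes, 0 to 1 higher and 0 to 6 lower for upstream regulators, and 0 to 2 higher and 1 to 6 lower for ZFP36 targets. No alternative gave a higher member or a called stress chaperone (limma; at an unadjusted p under 0.05, 0 members and, with normal library 3 alone, 1 chaperone). Signs turned only for genes that did not pass. Ier2 (0.15 in the report) was at -0.033 under quantile normalization and at -0.92 with normal library 3 alone, and ran from -0.30 to 0.69 when each library was left out, below 0 in 3 of these fits (normal library 1, normal library 2 and AML library 2). Jund ran from -0.47 to 0.067 when each library was left out. Hsp90ab1 was at -0.082 under upper quartile scaling and -0.16 under quantile normalization, and ran from -0.51 to 0.54 when each library was left out.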
